A study of Mus musculus with 162 samples.

Results

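Bile acid synthesis and transport is described here through 10 mouse genes, chosen by name: Cyp7a1, Cyp8b1, Cyp27a1, Cyp7b1, Nr0b2, Nr1h4, Abcb11, Slc10a1, Slc27a5 and Baat. They are 10 of the 53686 genes in the count table, and all 10 were found there. The study measured mRNA by sequencing in several organs of mice deprived of food for a short time, to follow how each organ's transcripts shift as a fast lengthens. Every mouse was a C57BL/6J male aged 8 to 9 weeks. The fed group (0 h) ate freely, and 5 other groups lost access to food 2, 8, 12, 18 or 22 h before they were killed, with 3 mice in each of the 6 groups. All mice were killed within the same short window early in the dark period, so that the groups differed in when food was removed and not in the clock time of collection. Each of the 18 mice gave all 9 organs, with 1 library each: olfactory bulb (OB), brain (BRN), cerebellum (CBL), brainstem (BST), stomach (STM), liver (LIV), interscapular brown fat (iBAT), perigonadal white fat (pgWAT) and posterior subcutaneous white fat (psWAT). Replicate numbers name different mice at each time point, and 5 libraries outside LIV that the study set aside were left out here. The 18 LIV libraries held 6959200 to 12451777 counts each. In the deepest retained library of the series, from iBAT, there were 27801717 counts, and in the shallowest, from BRN, 3045845.

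Bile acids are made from cholesterol in hepatocytes. Cyp7a1 opens the classic route as its rate-limiting enzyme, Cyp27a1 and Cyp7b1 serve the alternative route that starts with oxidation of the side chain, and Cyp8b1 adds the hydroxyl group that steers the product to cholic acid. The products are activated by the ligase Slc27a5, joined to taurine or glycine by Baat, pumped into bile by Abcb11 (the bile salt export pump) and taken back up from blood by Slc10a1 (the sodium-dependent uptake carrier), while the bile acid receptor Nr1h4 (FXR) and its target Nr0b2 (SHP), a repressor without a DNA-binding domain, hold synthesis in check.

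All 10 genes passed the filter on low counts in LIV, and the lowest value in any LIV library was 67 counts, for Nr0b2. Levels are compared between genes per length of exon sequence, as counts per 1e+06 of the library total and kilobase (RPKM), as means over the 18 LIV libraries. The conjugating ligase Slc27a5 (315 ± 27.4 RPKM, SD) and the side-chain oxidase Cyp27a1 (313 ± 52.5 RPKM, SD) had the highest means, ahead of Cyp7b1 (195 RPKM), Cyp8b1 (133.9 RPKM) and Baat (128 RPKM). Nr1h4 (101.7 RPKM), Slc10a1 (95.9 RPKM) and Abcb11 (71.8 RPKM) followed, and the repressor Nr0b2 (36.3 ± 18.7 RPKM, SD) and the rate-limiting enzyme Cyp7a1 (33.2 ± 16.7 RPKM, SD) had the lowest. The SDs of Nr0b2 and Cyp7a1 exceed the distance between their means, as do those of Slc27a5 and Cyp27a1, and in fed livers alone Nr0b2 (28.2 RPKM) lay below Cyp7a1 (53.0 RPKM). Within 1 gene, levels are given below as counts per 1e+06 of the library total (CPM).

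With time on the fast, 4 of the 10 genes changed in LIV: the uptake carrier Slc10a1, and the hydroxylases Cyp8b1, Cyp7b1 and Cyp7a1. This was a joint test of the 6 time points with edgeR's quasi-likelihood method, called at a Benjamini-Hochberg adjusted p below 0.05 over the 14023 genes tested, of which 16.0% were called. After a 2 h fast edgeR called 0 of the 10 (2 at an unadjusted p below 0.05, Cyp7a1 and Cyp8b1), against 0.143% of all genes, while DESeq2 called 1, Cyp7a1, against 1.14%. In the 8 h and 12 h fasts, pooled, 2 fell against the fed state, Cyp7b1 and Slc10a1, where 8.89% of all genes were called and 4.81% fell. In the 18 h and 22 h fasts together, 3 fell against the fed state, Cyp7a1, Cyp8b1 and Slc10a1, where 10.6% of all genes were called and 5.39% fell. Against the 8 h and 12 h fasts, the 18 h and 22 h fasts had 1 lower member, Cyp8b1, where 2.70% of all genes were called and 1.58% fell. The first 3 contrasts share the 3 fed libraries, and the last shares its libraries with the others, so they are not independent of each other. No member rose in these contrasts. With the filter on low counts dropped, edgeR called 6 members in the joint test, adding Nr0b2 and Baat, where 15.8% of all genes were called. The same fit called 3 members at 2 h (2.05% of all genes) and 3 in the 8 h and 12 h fasts (6.88%), 5 in the 18 h and 22 h fasts against the fed state (7.47%) and 4 between the later and earlier fasts (5.48%). In it Nr0b2 rose at 2 h (0.73 ± 0.16 log2, SE; edgeR adjusted p = 0.000539) and in the 18 h and 22 h fasts against the fed state (0.57 ± 0.14, 0.00174), and Nr0b2 (0.80 ± 0.11) and Cyp7b1 (0.50 ± 0.11, edgeR adjusted p = 0.000375) were higher in the later than in the earlier fasts. Against the fed state, Nr0b2 in the 18 h and 22 h fasts turned negative with sequencing lane as a covariate. That fit kept the filter and did not call Nr0b2. The SEs of the 10 members at 2 h were 0.15 to 0.16 without the filter and 0.11 to 0.58 with it. Without the filter they were thus nearly equal, though the spread between livers differed among members, so the small p values of that fit are uncertain. The joint edgeR adjusted p of Cyp7a1 was 3.68e-32 without the filter and 0.0465 with it. In whole liver, fewer cells of a type and less RNA per cell cannot be told apart.

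Sequencing lane, as the library names give it, ran nearly alongside fasting time in LIV. Lane 1 held the 0 h and 2 h libraries and replicates 1 and 2 of 8 h, and lane 2 held replicate 3 of 8 h and all libraries of 12, 18 and 22 h. Contrasts of the long fasts with the fed state are therefore tied to a contrast of lanes except through the 3 libraries of 8 h. With lane as a covariate, edgeR called 1 member in the joint test (Cyp8b1), 1 in the 8 h and 12 h fasts against the fed state (Slc10a1) and 0 of 10 in both contrasts that involve the 18 h and 22 h fasts, each with 1 at an unadjusted p below 0.05. The shares of all genes called in these fits were 2.097% in the joint test, 4.96% in the 8 h and 12 h fasts against the fed state, 0.150% in the 18 h and 22 h fasts against the fed state and 0% between the later and earlier fasts (1648 genes at an unadjusted p below 0.05), so fewer were called among all genes as well. Within lane 1 the joint test called 1 member (Cyp8b1) and 5.25% of all genes, and within lane 2 it called 0 members (2 at an unadjusted p below 0.05, Cyp8b1 and Slc10a1) and 0.0875% of all genes. DESeq2, without the covariate, called 5 members in the joint test, adding Baat to the 4, and 25.6% of all genes.

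Slc10a1, the carrier that returns bile acids from portal blood to hepatocytes, gave the clearest fall. Fed livers held 306, 335 and 244 CPM, the 2 h fast 263, 276 and 234.9 CPM, and the 8 h fast 190, 236 and 247 CPM. The 12 h fast held 155.3, 146.6 and 118.7 CPM, the 18 h fast 148.6, 155.05 and 200.4 CPM, and the 22 h fast 206, 179 and 155.2 CPM. All 9 livers of the 12, 18 and 22 h fasts lay below all 3 fed livers, whereas those of 2 h and 8 h overlapped the fed range. The joint edgeR test gave an adjusted p of 0.000832 (0.000524 to 0.00439 with each library left out). Slc10a1 fell by 0.80 ± 0.13 (log2, SE) in the 8 h and 12 h fasts, lower than every fed liver in 5 of 6 (edgeR adjusted p = 0.00246, 0.00127 to 0.0379 with each library left out), and by 0.85 ± 0.13 in the 18 h and 22 h fasts, lower in 6 of 6 (edgeR adjusted p = 0.000532, 0.000523 to 0.00902 with each library left out). With lane as a covariate the change in the 8 h and 12 h fasts was -0.99 ± 0.20 (edgeR adjusted p = 0.0145), and the others were no longer called, at an adjusted p of 0.0575 in the joint test and of 0.0673 in the 18 h and 22 h fasts, where the estimate was -1.13 ± 0.26. Within lane 1 the 8 h livers stood at -0.58 ± 0.17 against the fed livers (edgeR adjusted p = 0.0770), and within single lanes the joint test gave 0.106 (lane 1) and 0.252 (lane 2). The 8 h fast on its own was at -0.49 (edgeR adjusted p = 0.131) and the 12 h fast at -1.11 (0.000610).

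Cyp8b1, the enzyme that sets the share of cholic acid, moved up and down along the series. Fed livers held 323, 307 and 264 CPM, the 2 h fast 223, 145.4 and 245 CPM, and the 8 h fast 433, 458 and 367 CPM. The 12 h fast held 229, 186.96 and 218 CPM, the 18 h fast 138.4, 166.5 and 113.1 CPM, and the 22 h fast 361, 213 and 307 CPM. The 3 livers of 8 h were the highest of all 18 and lay above all fed livers, those of 2, 12 and 18 h lay below all fed livers, and those of 22 h spread across the fed range. Mean CPM at 8 h was 3.01 times that at 18 h. Of the members, Cyp8b1 alone was called in the joint test also with lane as a covariate and within lane 1 (edgeR adjusted p = 0.00121, 0.000881 to 0.00439 with each library left out, 0.0151 with lane, 0.0264 in lane 1), while lane 2 alone gave 0.0911. It fell by 0.65 ± 0.17 (log2, SE) in the 18 h and 22 h fasts against the fed state, below every fed liver in 4 of 6 (edgeR adjusted p = 0.0198, 0.00898 to 0.0885 with each library left out). That call was lost without replicate 1 of 0 h (0.0885) and without replicate 2 of 0 h (0.0821), and with lane as a covariate (-0.44, edgeR adjusted p = 0.587). The 18 h livers on their own were at -1.22 (edgeR adjusted p = 0.00158) and the 22 h livers at -0.08 (0.868).

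Against the 8 h and 12 h fasts, Cyp8b1 fell by 0.59 ± 0.14 (log2, SE) in the 18 h and 22 h fasts, with overlapping groups (edgeR adjusted p = 0.0357, 0.0277 to 0.0984 with each library left out). The call was lost without replicate 1 (0.0757) or 2 (0.0984) of 8 h, replicate 3 of 12 h (0.0867), replicate 2 (0.0584) or 3 (0.0753) of 18 h, or replicate 2 (0.0898) or 3 (0.0715) of 22 h. It was also lost with lane as a covariate (-0.52, edgeR adjusted p = 0.278) and within lane 2 (-0.52, 0.341). Single time points differed in what they gave: with the 8 h livers as the only reference the difference was -1.04 (edgeR adjusted p = 0.00599) and with the 12 h livers -0.14 (0.725), and the 18 h livers alone stood at -1.16 (0.00699) and the 22 h livers alone at -0.02 (0.971).

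Cyp7a1, the rate-limiting enzyme of the classic route, had its highest single values in fed livers and its lowest after 2 h. Fed livers held 256, 291 and 117.1 CPM, the 2 h fast 94.998, 39.3 and 89.8 CPM, and the 8 h fast 212, 246 and 160 CPM. The 12 h fast held 107.5, 125.7 and 103.6 CPM, the 18 h fast 149.7, 67.8 and 81.97 CPM, and the 22 h fast 141.8, 116.6 and 92.97 CPM. Every liver of the 2 h fast lay below every fed liver and every 8 h liver, the 8 h livers lay inside the fed range, and the livers of 12, 18 and 22 h overlapped the fed range only through replicate 3 of 0 h, which held less than the other fed livers did. The 2 h fast against the fed state gave -1.59 ± 0.39 (log2, SE), which did not pass the edgeR test (adjusted p = 0.150, 0.0978 to 0.396 with each library left out) and passed in DESeq2 (adjusted p = 0.0108), and within lane 1 it was -1.60 (edgeR adjusted p = 0.254). With the filter on low counts dropped, edgeR called Cyp7a1 at 2 h, where 2.05% of all genes were called. In the 18 h and 22 h fasts Cyp7a1 fell by 1.13 ± 0.32 against the fed state, below every fed liver in 4 of 6 (edgeR adjusted p = 0.0420, 0.0170 to 0.194 with each library left out). That call depended on single libraries: it was lost in 10 of 18 leave-outs, at an adjusted p of 0.0520 to 0.194, namely without replicate 1 or 2 of 0 h, replicate 1 of 8 h, any replicate of 12 h, or replicate 2 or 3 of 18 h or 22 h, and the estimate ranged from -1.44 to -0.88. With lane as a covariate it was -0.68 (edgeR adjusted p = 0.682). The joint test gave an edgeR adjusted p of 0.0465 and kept the call in 2 of 18 leave-outs, without replicate 3 of 0 h (0.0154) and without replicate 1 of 18 h (0.0243), with 0.0509 to 0.105 in the other 16, 0.146 with lane, 0.159 in lane 1 and 0.588 in lane 2.

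Cyp7b1, the oxysterol hydroxylase of the alternative route, was low in the middle of the series. Fed livers held 559, 532 and 555 CPM, the 2 h fast 341, 701 and 650 CPM, and the 8 h fast 253, 150.96 and 301 CPM. The 12 h fast held 456, 337 and 230 CPM, the 18 h fast 318, 408 and 203 CPM, and the 22 h fast 707, 500 and 382 CPM. All 9 livers of 8, 12 and 18 h lay below all 3 fed livers, which were close to each other, while those of 2 h and 22 h lay on both sides of the fed range. In the 8 h and 12 h fasts it fell by 1.03 ± 0.29 (log2, SE), lower in 6 of 6 (edgeR adjusted p = 0.0411, 0.0227 to 0.135 with each library left out). The call was lost in 10 of 18 leave-outs, at an adjusted p of 0.0504 to 0.135, namely without any replicate of 0 h, replicate 3 of 2 h, replicate 1 or 2 of 8 h, replicate 2 or 3 of 12 h, replicate 1 of 18 h or replicate 2 of 22 h. With lane as a covariate the difference was -1.48 (edgeR adjusted p = 0.0728), and within lane 1 the 8 h livers stood at -1.56 against the fed livers (edgeR adjusted p = 0.0541). Neither time point passed alone (8 h at -1.32, edgeR adjusted p = 0.105; 12 h at -0.74, 0.183). The joint test gave an edgeR adjusted p of 0.0457 and kept the call in 6 of 18 leave-outs, without replicate 1 of 2 h, replicate 3 of 8 h, replicate 1 of 12 h, replicate 2 or 3 of 18 h or replicate 3 of 22 h (lowest 0.0166), with 0.0516 to 0.0892 in the other 12, 0.0892 with lane, 0.0520 in lane 1 and 0.428 in lane 2.

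The other 6 members did not pass in the joint edgeR test. Livers that lay above or below all fed ones, here and for the genes before, are given as a description. For 3 against 3 libraries the smallest two-sided p of an exact permutation test is 0.1. How often other genes lay apart in this way is not given here. Cyp27a1, which oxidises the sterol side chain, ranged from 447 to 855 CPM, and although all 6 livers of the 8 h and 12 h fasts (669 to 750.1 CPM) lay above all 3 fed livers (469.7 to 640.5 CPM), the difference of 0.24 ± 0.16 (log2, SE) did not pass (edgeR adjusted p = 0.355). The repressor Nr0b2 had the widest spread of the set relative to its mean, from 8.52 CPM in replicate 3 of 12 h to 81.6 CPM in replicate 2 of 2 h, and all 3 livers of 2 h (35.6 to 81.6 CPM) and of 22 h (46.7 to 73.4 CPM) lay above all fed ones (28.5 to 34.8 CPM), while those of 8, 12 and 18 h overlapped them. Neither the 2 h fast (0.72 ± 0.58, edgeR adjusted p = 0.750) nor the 18 h and 22 h fasts (0.57 ± 0.52, 0.533) passed for Nr0b2. The receptor Nr1h4 ranged from 162.1 to 315 CPM, and all 6 of its livers of 8 h and 12 h lay above all fed ones (198 to 212 CPM), a difference of 0.32 ± 0.14 that did not pass (edgeR adjusted p = 0.144). Its joint test (edgeR adjusted p = 0.135) passed without replicate 1 (0.0496) or 2 (0.0458) of 18 h. The export pump Abcb11 ranged from 265 to 475 CPM, with all 8 h livers above all fed ones, though edgeR did not call it for 8 h alone. Without replicate 1 of 18 h it passed in the joint test (edgeR adjusted p = 0.0401, 0.287 with all libraries) and was lower in the later than in the earlier fasts (-0.43, 0.0156). In that leave-out 6 members were called in the joint test, where 20.7% of all genes were called (16.0% with all libraries). Between the later and earlier fasts 9.93% of all genes were then called (2.70% with all libraries). The ligase Slc27a5 ranged from 632 to 864 CPM, with all livers of 2 h and 12 h below all fed ones, though edgeR called it neither at 2 h nor for 12 h alone. The conjugating enzyme Baat ranged from 167.3 to 300.1 CPM and came closest to a call in the joint test (edgeR adjusted p = 0.0595, 0.0478 to 0.106 with each library left out). It passed without replicate 3 of 22 h (0.0478) or replicate 1 of 18 h (0.0481), as well as in DESeq2 (0.0135), and with lane as a covariate it stood at 0.161. The 3 Baat values at 18 h (238, 167.3 and 230.5 CPM) all lay below the fed ones (272, 274 and 268 CPM), as did those of 2 h and 12 h, while those of 8 h all lay above them (288 to 299.7 CPM) and those of 22 h overlapped them. The 18 h livers alone gave -0.48 (edgeR adjusted p = 0.0296).

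**Figure D1:**
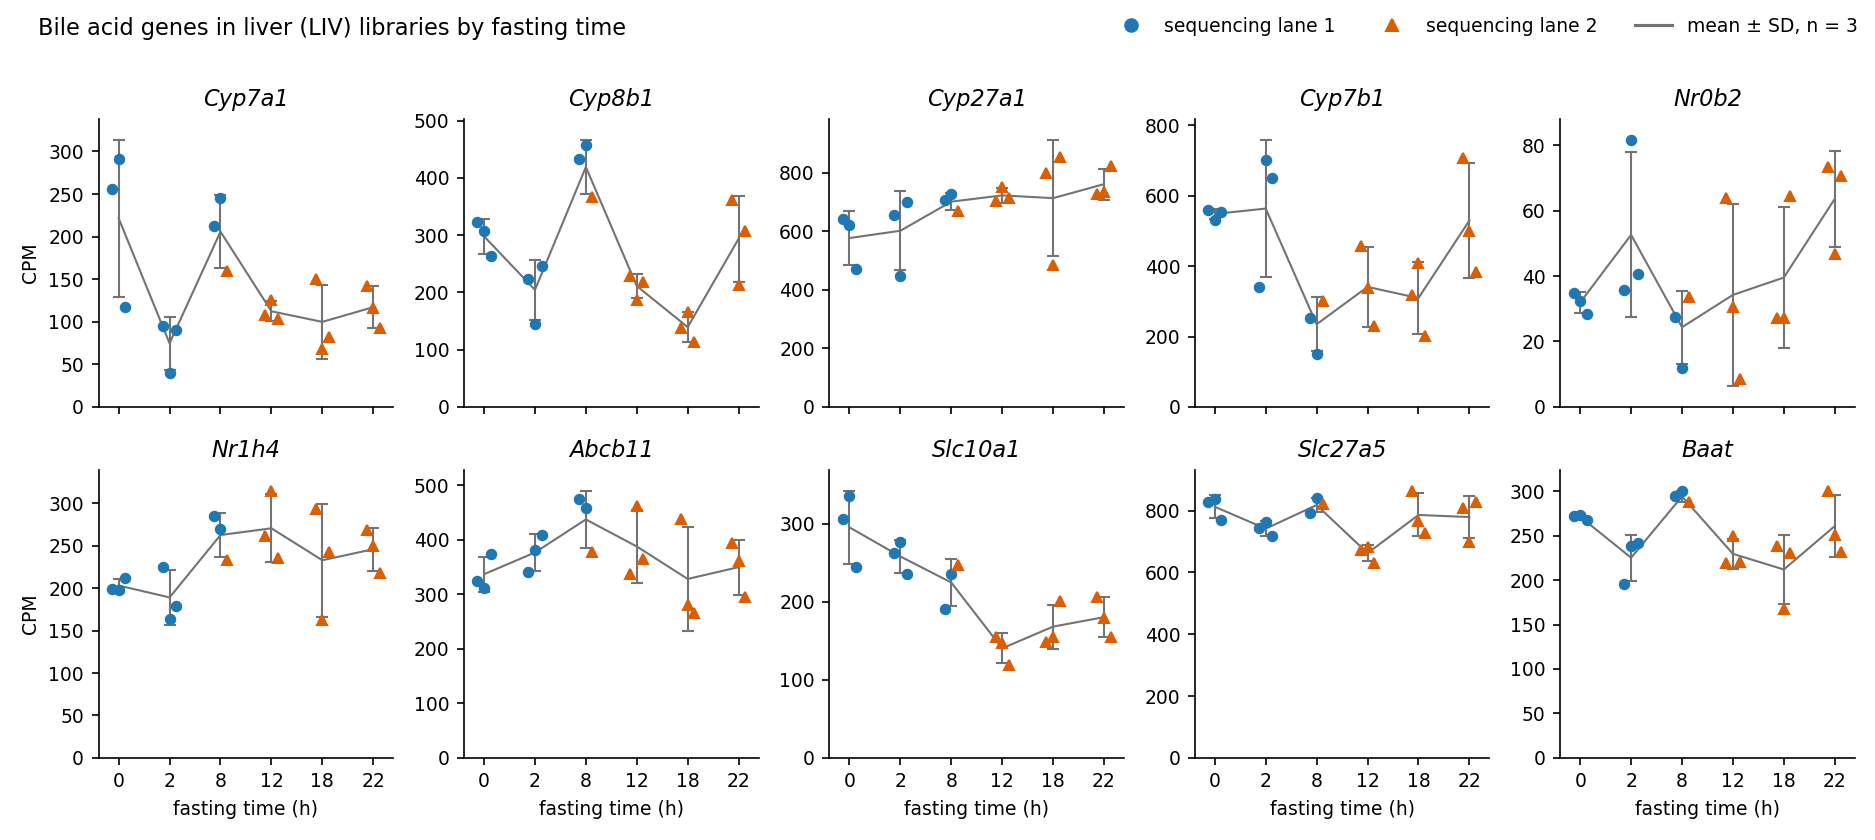
CPM of the 10 bile acid genes in each LIV library by fasting time (h, drawn at equal steps), with lane 1 as circles, lane 2 as triangles and the mean ± SD of 3 mice in grey. Slc10a1 lies between 118.7 and 206 CPM in the livers of 12, 18 and 22 h and between 244 and 335 CPM in fed livers, and Cyp8b1 is highest at 8 h (367 to 458 CPM) and lowest at 18 h (113.1 to 166.5 CPM).

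Ratios of counts within a library do not depend on scaling. They set transcripts of the enzymes side by side and do not measure the flow through the classic or alternative route. The ratio of Cyp27a1 to Cyp7a1, the entry enzymes of the alternative and classic routes, was 2.50, 2.13 and 4.01 in fed livers, 6.92, 11.4 and 7.80 at 2 h, 3.33, 2.96 and 4.18 at 8 h, 6.55, 5.97 and 6.89 at 12 h, 5.33, 7.17 and 10.4 at 18 h and 5.12, 6.31 and 8.84 at 22 h. Its mean was highest at 2 h (8.70), and the ratios of 2, 12, 18 and 22 h all exceeded the fed ones, those of 18 h and 22 h by 1.33 on the log2 scale. The two-sided exact permutation test gave p = 0.0238, the smallest that 6 against 3 libraries allow, and 0.195 after Benjamini-Hochberg adjustment over the 9 ratio tests. Cyp7b1 to Cyp7a1 differed by 1.05 (log2) between the 18 h and 22 h fasts and the 8 h and 12 h fasts (exact permutation p = 0.0433, adjusted 0.195). None of the 9 ratio tests passed the adjustment, those of Cyp8b1 to Cyp7a1 included, with an adjusted p of 0.300 to 0.885. At the smallest exact permutation p of 0.0238, a test of 6 against 3 libraries could pass only if several of the 9 were about as small. Not passing therefore says little of the ratios against the fed state.

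Other genes of the pathway were followed by lists named in the methods, and each count called in the joint test stands against the 16.0% of all genes called there. Of 15 further synthesis enzymes tested in LIV, 5 were called in the joint edgeR test (9 at an unadjusted p below 0.05, 9 in DESeq2). Akr1c6 fell in every contrast with the fed state, by 0.63 ± 0.13 (log2, SE) at 2 h (edgeR adjusted p = 0.0413), 0.85 ± 0.11 in the 8 h and 12 h fasts (0.000834) and 0.72 ± 0.11 in the 18 h and 22 h fasts (0.000438). It belongs to a family of close copies among which reads may be split, so its count is uncertain. The Akr1c6 call at 2 h did not hold without replicate 1 of 0 h or replicate 2 of 2 h, where edgeR called 0 genes lower. Akr1d1, the reductase of the steroid ring, fell by 0.60 ± 0.13 in the 18 h and 22 h fasts (edgeR adjusted p = 0.00613), and the racemase Amacr by 0.46 ± 0.10 in the 8 h and 12 h fasts (0.00775) and by 0.34 ± 0.10 in the 18 h and 22 h fasts (0.0297). Hsd3b7, the next enzyme of the classic route after Cyp7a1, was called in the joint test only (edgeR adjusted p = 0.0126), with 4.76, 3.94 and 4.79 CPM at 2 h against 7.68, 8.48 and 11.9 CPM in fed livers, and the peroxisomal Hsd17b4 likewise (0.0359). Hsd3b7, Akr1d1 and Akr1c6 kept the joint call in all 18 leave-outs, Amacr lost it without replicate 1 (0.0724) or 2 (0.0601) of 0 h, and Hsd17b4 lost it in 11 of 18 (0.0531 to 0.0794). The list's median was -0.05 in the 8 h and 12 h fasts and -0.25 in the 18 h and 22 h fasts, where the median of all 14023 genes was 0.01 in both.

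Of 15 further bile and organic anion transporters tested, 4 were called in the joint edgeR test (6 at an unadjusted p below 0.05, 5 in DESeq2). Abcg5, which with Abcg8 exports sterols into bile, rose by 0.81 ± 0.21 (log2, SE) in the 18 h and 22 h fasts against the fed state (edgeR adjusted p = 0.0217) and by 0.81 ± 0.16 against the 8 h and 12 h fasts (0.0263). Its 18 h livers held 269, 177 and 246 CPM against 115.2, 109.2 and 61.7 CPM in fed livers, above all of them, and its joint call held in all 18 leave-outs (edgeR adjusted p = 0.00155 to 0.0206). Its partner Abcg8, named after its values were seen, was at 0.30 ± 0.29 (edgeR adjusted p = 0.551). Slc10a2, the apical sodium-dependent bile acid carrier, fell by 0.65 ± 0.19 in the 18 h and 22 h fasts (edgeR adjusted p = 0.0357), and Ephx1 (0.0124) and Slco2b1 (0.0463) were called in the joint test only. Slco2b1 lost that call in 15 of 18 leave-outs (0.0501 to 0.123). The uptake carrier Slco1b2, named here after its values were seen, fell in the 18 h and 22 h fasts (-0.47 ± 0.15, edgeR adjusted p = 0.0456), when 1 transporter rose and 2 fell and the list's median was -0.17. Slc51a, Slc51b and Fabp6, the basolateral exporter and binding protein of the ileum, did not pass the filter on low counts.

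Of 16 further regulators tested, 5 were called in the joint edgeR test (8 at an unadjusted p below 0.05, 8 in DESeq2). Nr5a2 (LRH-1), an activator of Cyp7a1 and Cyp8b1, fell by 0.51 ± 0.13 (log2, SE) in the 18 h and 22 h fasts (edgeR adjusted p = 0.0170) and by 0.44 ± 0.11 against the 8 h and 12 h fasts (0.0365), and its joint call (0.0161) was lost without replicate 1 of 22 h (0.0550). Prox1, a corepressor in hepatocytes, fell by 0.91 ± 0.19 in the 18 h and 22 h fasts (edgeR adjusted p = 0.00669). In that contrast 2 regulators fell and 0 rose, while the list's median was 0.21, with 11 genes above 0 and 5 below. Mafg (0.0262) and Ppargc1a (0.0323) were called in the joint test only, and Fgfr4, the hepatic receptor for the gut hormone Fgf15 and named after its values were seen, rose in the 8 h and 12 h fasts (0.46 ± 0.14, edgeR adjusted p = 0.0453). The joint calls were lost in 12 of 18 leave-outs for Prox1 (0.0514 to 0.132), 7 for Ppargc1a (0.0509 to 0.1303) and 4 for Mafg (0.0571 to 0.0938). Fgf15 had 0 counts in every LIV library, and Vdr and Gpbar1 did not pass the filter.

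Among 10 clock output regulators, several of which bind the control regions of bile acid genes, 3 were called in the joint edgeR test (6 at an unadjusted p below 0.05, 7 in DESeq2). The D-box repressor Nfil3 rose by 1.27 ± 0.24 (log2, SE) at 2 h (edgeR adjusted p = 0.0372) and by 0.88 ± 0.21 in the 8 h and 12 h fasts (0.0166), from 11.6, 12.4 and 18.9 CPM in fed livers to 25.1, 45.4 and 32.98 CPM at 2 h. All 3 livers of 2 h lay above all fed ones. Its joint call held in all 18 leave-outs (edgeR adjusted p = 0.00205 to 0.0260). The Nfil3 call at 2 h did not hold without replicate 1 or 2 of 0 h or replicate 3 of 2 h, where edgeR called 0 genes higher. Nr1d2 rose by 0.52 ± 0.16 in the 18 h and 22 h fasts (edgeR adjusted p = 0.0420) and Tef was called in the joint test only (0.0421), and both lost the joint call in 14 of 18 leave-outs (Nr1d2 0.0511 to 0.0875, Tef 0.0512 to 0.128).

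Of 8 genes of cholesterol supply, 5 were called in the joint edgeR test (8 at an unadjusted p below 0.05, 6 in DESeq2). In the 18 h and 22 h fasts against the fed state 5 of 8 fell and 1 rose, where 10.6% of all genes were called and 5.39% fell, and the list's median was -0.51 against 0.01 for all genes. Sqle, an enzyme of cholesterol synthesis, fell by 2.11 ± 0.26 (log2, SE; edgeR adjusted p = 0.000438), from 51.3, 54.2 and 61.1 CPM in fed livers to 15.7, 11.1 and 4.55 CPM at 18 h and 24.5, 16.7 and 13.2 CPM at 22 h. Every fasted liver of the series lay below every fed one for Sqle, and the 8 h and 12 h fasts were lower by 1.22 ± 0.26 (edgeR adjusted p = 0.0113). The sterol regulator Srebf2 fell by 0.48 ± 0.13 (edgeR adjusted p = 0.0254), and the acyltransferase Soat2, which forms cholesteryl esters, rose by 0.62 ± 0.18 (0.0335). Abca1 (-0.43 ± 0.13, edgeR adjusted p = 0.0349), named after its values were seen, fell in the same contrast. Insig2 was called in the joint test only (edgeR adjusted p = 0.0438). The joint call of Sqle held in all 18 leave-outs, and those of Srebf2 (9 of 18 lost, 0.0510 to 0.0732), Soat2 (6 lost, 0.0514 to 0.0604) and Insig2 (12 lost, 0.0518 to 0.0940) did not.

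Of 6 detoxification genes tested, 2 were called in the joint edgeR test (4 at an unadjusted p below 0.05, 2 in DESeq2). Papss2, which makes the sulphate donor, fell by 0.50 ± 0.12 (log2, SE) in the 8 h and 12 h fasts (edgeR adjusted p = 0.0131) and by 0.44 ± 0.12 in the 18 h and 22 h fasts (0.0223), and its joint call (0.0186) was lost without replicate 1 (0.0508) or 2 (0.0559) of 0 h. Cyp3a11 (0.0170), from a family of close copies and therefore uncertain, was called in the joint test only, and Cyp3a25 came next (0.0989, 0.0312 to 0.382 with each library left out, called without replicate 2 of 18 h). Of 10 targets of PPARA that fasting is known to induce, 2 were called in the joint edgeR test (3 at an unadjusted p below 0.05, 3 in DESeq2), and neither rose in a contrast. The lipid droplet protein Plin2 fell by 0.47 ± 0.13 in the 8 h and 12 h fasts (edgeR adjusted p = 0.0270) and by 0.65 ± 0.13 in the 18 h and 22 h fasts (0.00318), Pdk4 was called in the joint test only (0.0438, lost in 13 of 18 leave-outs at 0.0533 to 0.115), and Cpt1a came next (0.120, 0.0295 to 0.241 with each library left out). Of 7 genes that respond to feeding and insulin, 2 were called in the joint edgeR test (6 at an unadjusted p below 0.05, 6 in DESeq2), namely Elovl6, which was lower by 1.04 ± 0.22 in the 18 h and 22 h than in the 8 h and 12 h fasts (edgeR adjusted p = 0.0317), and Scd1 (0.00351). Srebf1 came next (0.0649, 0.0328 to 0.141 with each library left out), and Fasn, named after its values were seen, fell in the 18 h and 22 h fasts (-1.85 ± 0.47, edgeR adjusted p = 0.0272).

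Of the 39 list genes called in the joint test (the members aside), DESeq2 also called 39, RLE factors in place of TMM left 39, no low count filter 36, the replicate number as a replicate block 29, lane as a covariate 9, lane 1 alone 6 and lane 2 alone 2. The 9 left with lane as a covariate were Hsd3b7, Akr1c6, Ephx1, Nfil3, Elovl6, Scd1, Glul, Cyp2e1 and Oat. Those called in lane 1 were Hsd3b7, Akr1c6, Sqle, Elovl6, Scd1 and Cyp2e1, and those in lane 2 were Scd1 and Oat.

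Markers of liver cell types were measured beside these genes. Hepatocyte markers summed to 75798 to 108296 CPM per LIV library, with Alb most abundant and 8 of 8 detected at every time point, and in the joint edgeR test 4 of 8 were called (5 at an unadjusted p below 0.05, 5 in DESeq2): Apob, Cps1, Fgb and Serpina1e. Serpina1e, from a family of close copies and therefore uncertain, fell by 0.61 ± 0.16 (log2, SE) in the 8 h and 12 h fasts (edgeR adjusted p = 0.0191). Without replicate 2 of 2 h the joint calls of Apob (0.184), Cps1 (0.125) and Fgb (0.0820) were lost, that of Serpina1e without replicate 2 of 8 h (0.109), and over all 18 leave-outs 13 ended the call of Apob, 12 each those of Cps1 and Serpina1e and 1 that of Fgb.

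Markers of pericentral hepatocytes, the zone around the central vein where Cyp7a1 and Cyp8b1 are known to be enriched, were called in 4 of 5 cases in the joint edgeR test (5 at an unadjusted p below 0.05, 4 in DESeq2), and 0 of 5 were called at 2 h. In the 8 h and 12 h fasts 4 of 5 fell, where 4.81% of all genes fell, Cyp2e1 (-0.70 ± 0.15 log2, SE; edgeR adjusted p = 0.00864), Oat (-0.82 ± 0.15, 0.00431), Cyp1a2 (-0.66 ± 0.16, 0.0173) and Glul (-0.38 ± 0.12, 0.0496), and in the 18 h and 22 h fasts 3 fell, Oat, Cyp1a2 and Glul. Their summed level, with Cyp2e1 most abundant, was 9491, 9848 and 6614 CPM in fed livers and 7107, 7232 and 7448 CPM at 2 h. It was 5608, 5365 and 7702 CPM at 8 h, 6052, 4901 and 4668 CPM at 12 h, 5775, 5824 and 6352 CPM at 18 h, and 7796, 9139 and 9094 CPM at 22 h. The livers of 12 h and 18 h lay below all fed ones, and those of the other fasts overlapped them. In the joint test these 4 were called in all 18 leave-outs. Of 5 periportal markers 1 was called in the joint edgeR test, Cyp2f2 (0.0131; 2 at an unadjusted p below 0.05, 2 in DESeq2), which fell by 0.54 ± 0.11 in the 8 h and 12 h fasts and by 0.50 ± 0.11 in the 18 h and 22 h fasts. Their sum ranged from 1537 to 3208 CPM over the 18 livers, with 2360, 2393 and 1939 CPM in fed livers and 2218, 2571 and 3208 CPM at 18 h, where Sds and not Cyp2f2 was most abundant. Sds was higher by 1.19 ± 0.29 in the 18 h and 22 h than in the 8 h and 12 h fasts (edgeR adjusted p = 0.0466). What part the zonal markers have in the changes of the bile acid genes was not tested.

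Markers of other cell types were summed in the same way, which does not measure how many such cells were present. Cholangiocyte and gallbladder markers summed to 104.2 to 163 CPM, with Spp1 or Anxa4 most abundant and 7 of 8 past the filter (Cftr was not), and edgeR called 0 of 7 in the joint test (2 at an unadjusted p below 0.05, 1 in DESeq2), with Spp1 at 0.0979 and Sox9 at 0.589. Kupffer cell markers summed to 103.4 to 290.3 CPM, with Clec4f most abundant, and 0 of 5 were called by edgeR (3 at an unadjusted p below 0.05, 3 in DESeq2), with Clec4f (0.0746), Vsig4 (0.102) and Cd5l (0.115) the nearest. In the 8 h and 12 h fasts against the fed state all 5 Kupffer markers were below 0, with a median of -0.75 (0 called by edgeR, 3 at an unadjusted p below 0.05, 3 called by DESeq2), and all 5 were above 0 between the later and earlier fasts, with a median of 0.55 (0 called by edgeR, 2 at an unadjusted p below 0.05, 2 called by DESeq2). Their part in the changes of the bile acid genes was not tested. Stellate markers summed to 102.5 to 212 CPM with Dcn most abundant, and 1 of 5 was called, Dcn (edgeR adjusted p = 0.0117), which fell by 0.37 ± 0.11 (log2, SE) in the 8 h and 12 h fasts, followed by Des (0.0822) and Lrat (0.159). Endothelial markers summed to 71.9 to 125.6 CPM with Clec4g or Stab2 most abundant, and 1 of 5 was called, Stab2 (edgeR adjusted p = 0.0266), a call lost in 4 of 18 leave-outs (0.0528 to 0.0623), followed by Pecam1 (0.0912) and Clec4g (0.172). Of 6 enterocyte markers 2 passed the filter, Slc10a2 and Fabp2 (edgeR adjusted p = 0.169 for the latter), and Vil1, Lct, Alpi and Fabp6 did not pass it. Their sum was 62.6 to 107 CPM per library, with Fabp2 most abundant.

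Genes with the most similar profiles are named for each member, by Pearson's r of log2 TMM-normalized CPM over the 18 LIV libraries among 14022 other genes. These points share lanes, library depth and fasting times, and r is given as a description. Cyp7a1 was followed most closely by Gm43314 (r = 0.899) and Cd1d1 (0.844). Cyp8b1 was followed by Tlr12 (0.827), Neu2 (0.823) and Gstt1 (0.795), Cyp7b1 by Hopx (0.929), Serpina1a (0.918) and Rpl10-ps5 (0.911), and Cyp27a1 by Msh3 (0.872), Gin1 (0.846) and Zfp354a (0.842). For Slc10a1 they were Got2-ps1 (0.949), Pgam1-ps2 (0.948) and Bphl (0.938), for Abcb11 B3gntl1 (0.876), AC154636.3 (0.857) and Lhx6 (0.851), and for Nr1h4 Ehmt1 (0.918), Sned1 (0.916) and Ercc6 (0.910). For Nr0b2 they were Nolc1 (0.825), Pprc1 (0.823) and Gja1 (0.801), for Slc27a5 Mccc1 (0.858), Pex7 (0.831) and Chmp2b (0.820), and for Baat Gm14326 (0.832), Cetn2 (0.823) and Map3k13 (0.797). The pseudogenes Got2-ps1, Pgam1-ps2 and Rpl10-ps5 and the family member Serpina1a share sequence with other genes, and their counts are uncertain.

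Promoter sequences (250 bases before to 50 after a transcription start, RefSeq, GRCm38.p6) were matched for 6 of the 10 members, 7 promoters in all. Those of Cyp7a1, Cyp7b1, Slc27a5 and Baat were not in the table used. Both strands were searched for the nuclear receptor motif AGGTCA (present in 16.3% of 32851 promoters), its extended form CAAGGTCA (1.56%), which contains the shorter motif, the inverted repeat AGGTCANTGACCT (0.00913%), which contains it as well, the D-box TTATGTAA or TTATGCAA (1.66%) and the E-box CACGTG (7.15%). The promoters of the members that kept their joint call in every leave-out, Slc10a1 and Cyp8b1, are shown because their transcripts moved most clearly, and capitals mark motif matches on either strand. Slc10a1 has an upstream and a downstream start on the minus strand of chromosome 12, and Cyp8b1 has 1 start on the minus strand of chromosome 9.
Slc10a1, chr12:80968030-80968329, minus strand: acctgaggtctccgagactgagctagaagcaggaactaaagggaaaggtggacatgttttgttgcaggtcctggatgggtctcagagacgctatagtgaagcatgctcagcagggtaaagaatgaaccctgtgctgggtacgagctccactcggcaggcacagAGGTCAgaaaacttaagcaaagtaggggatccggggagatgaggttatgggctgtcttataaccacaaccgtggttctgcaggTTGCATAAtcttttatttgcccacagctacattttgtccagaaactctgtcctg
Slc10a1, chr12:80968656-80968955, minus strand: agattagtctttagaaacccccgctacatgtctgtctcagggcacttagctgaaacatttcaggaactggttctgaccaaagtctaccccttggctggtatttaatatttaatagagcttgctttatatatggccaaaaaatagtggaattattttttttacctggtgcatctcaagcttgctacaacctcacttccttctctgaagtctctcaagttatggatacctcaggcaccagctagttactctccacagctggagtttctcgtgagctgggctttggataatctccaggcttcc
Cyp8b1, chr9:121916256-121916555, minus strand: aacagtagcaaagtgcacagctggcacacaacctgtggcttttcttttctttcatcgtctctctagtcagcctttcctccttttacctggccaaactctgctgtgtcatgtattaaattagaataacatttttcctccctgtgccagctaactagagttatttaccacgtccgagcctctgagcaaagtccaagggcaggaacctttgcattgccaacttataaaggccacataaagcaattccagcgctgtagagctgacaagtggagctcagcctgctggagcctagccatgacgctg
The first Slc10a1 promoter holds AGGTCA 87 bases before its start and a D-box, read on the other strand as TTGCATAA, 4 bases before it. The second Slc10a1 promoter and that of Cyp8b1 hold none of the motifs, as does that of Cyp27a1. Elsewhere, AGGTCA was found on the reverse strand in the promoters of Abcb11 and Nr1h4, 56 and 214 bases before the start, and the E-box in that of Nr0b2, 195 bases before it. A match describes the letters in this window and no more.

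Across organs, LIV had the highest mean CPM for 10 of the 10 genes, and for 9 of them every LIV library lay above every retained library of the other organs. Nr0b2 was the exception, since its lowest LIV library (8.52 CPM) lay below the highest of STM (13.5 CPM). LIV exceeded the organ next in order for every member in every mouse with both libraries retained (permutation test over mice on log2 CPM with 0.5 added, Benjamini-Hochberg adjusted p of 0.0002 to 0.000218 over 80 neighbour tests). These were 16 mice for Cyp7b1, 17 for Cyp8b1, Nr0b2, Nr1h4 and Abcb11, and 18 for the others. In the mouse whose STM library was set aside (replicate 3 of 12 h), Nr0b2 stood at 10.2 CPM in STM and 8.52 CPM in LIV. The ratio of the LIV mean to the next organ was 4.33 for Nr0b2 (next STM), 10.3 for Cyp27a1 (pgWAT), 27.7 for Cyp7b1 (BRN) and 46.9 for Nr1h4 (STM), and 134.3 to 377 for the other 6. For Cyp7a1, Slc10a1, Slc27a5 and Baat that organ is pgWAT, whose means rest mostly on 1 library, as given below, so their ratios depend on it. Cyp27a1, a mitochondrial enzyme of many tissues, passed the filter in all 9 organs, in the order LIV (679 ± 114.2 CPM, SD, n = 18), pgWAT (65.8 ± 14.5), psWAT (47.8 ± 15.6), iBAT (38.9 ± 7.96), BST (26.5 ± 2.22), STM (25.1 ± 15.3), CBL (19.1 ± 1.93), OB (16.4 ± 1.90) and BRN (9.05 ± 2.53). In that order psWAT and iBAT (permutation adjusted p = 0.258), BST and STM (0.303) and STM and CBL (0.668) were not separated beyond their spread, and the other neighbours were. Cyp7b1 was next highest in the 4 brain regions, BRN (15.2 ± 3.76 CPM, SD), BST (9.98 ± 0.904), OB (9.48 ± 1.67) and CBL (7.58 ± 1.06), of which BST and OB were not separated (permutation adjusted p = 0.361), and STM, pgWAT and psWAT lay between 3.65 and 4.20 CPM. Nr0b2 (9.47 ± 2.15 CPM, SD, n = 17) and Nr1h4 (4.99 ± 1.73) were next highest in STM.

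**Figure D2:**
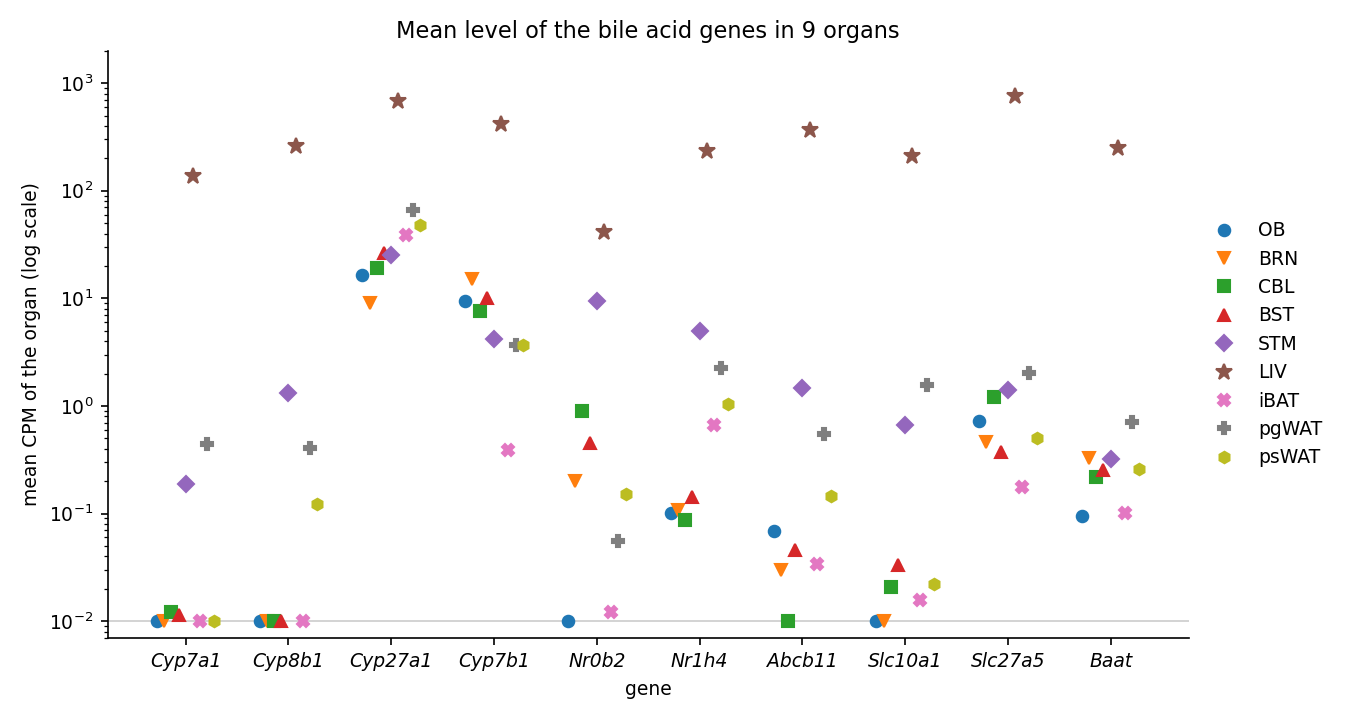
Mean CPM (log axis) of the 10 bile acid genes in each of the 9 organs over retained libraries, with means below 0.01 CPM drawn at 0.01. LIV is highest for all 10, and Cyp27a1 is the only gene whose means stay above 9 CPM in every organ, from 9.05 CPM in BRN to 679 CPM in LIV.

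Some of the liver-type signal elsewhere came from single libraries. Alb, the most abundant hepatocyte transcript, was above 300 CPM in 3 libraries outside LIV: replicate 2 of pgWAT at 18 h (3392 CPM), replicate 2 of STM at 12 h (780 CPM) and replicate 3 of STM at 0 h (339 CPM). The pgWAT library had more than 3 counts of all 10 members and held 7.64 CPM of Cyp7a1, 25.1 CPM of Slc10a1, 31.8 CPM of Slc27a5 and 10.3 CPM of Baat, the highest values of these genes in any library outside LIV. Without it the pgWAT means went from 0.443 to 0.0195 CPM for Cyp7a1, from 1.57 to 0.184 CPM for Slc10a1, from 2.03 to 0.2795 CPM for Slc27a5 and from 0.716 to 0.149 CPM for Baat. How Alb and the members came to be in these libraries was not tested.

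Outside LIV the members gave 26 tests in which a gene passed the filter (3 in OB, 2 in BRN, 4 in CBL, 2 in BST, 7 in STM, 1 in iBAT, 4 in pgWAT and 3 in psWAT). In the joint edgeR test 1 of the 26 was called, Cyp27a1 in STM, with 6 at an unadjusted p below 0.05 and 4 in DESeq2 (Cyp27a1, Abcb11 and Slc27a5 in STM and Cyp7b1 in pgWAT). Shares of all genes called in that test were 15.4% in OB, 0.00597% in BRN, 2.99% in CBL, 0.107% in BST, 6.55% in STM (2805 of 16281 genes called by DESeq2), 29% in iBAT, 0% in pgWAT (1693 genes at an unadjusted p below 0.05, 556 called by DESeq2) and 0% in psWAT (3195 and 2053). In the 18 h and 22 h fasts against the fed state 1 of the 26 was called as well, Cyp27a1 in STM, with 4 at an unadjusted p below 0.05 and 2 in DESeq2 (Cyp27a1 in STM and Cyp7b1 in pgWAT). Shares of all genes called there were 1.95% in OB, 11.2% in BRN, 0.344% in CBL, 0.0596% in BST, 15.3% in STM, 20.9% in iBAT, 0.00609% in pgWAT and 0% in psWAT (867 genes at an unadjusted p below 0.05, 12 called by DESeq2). For the organs of its member calls, DESeq2 called 3344 of 16281 genes in STM and 1136 of 16412 in pgWAT. OB libraries were divided between 2 lanes in the same way as those of LIV. In pgWAT no lane held both fed libraries and libraries of 18 h or 22 h, so that contrast cannot be told apart from lane. Lane was not used as a covariate in OB or pgWAT.

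Cyp27a1 in STM held 10.8, 19.1 and 8.06 CPM in fed mice, 12.6, 21.7 and 18.99 CPM at 2 h, and 15.4, 10.1 and 20.1 CPM at 8 h. The 12 h fast held 13.4 and 31.9 CPM (2 retained libraries), the 18 h fast 56.5, 30.8 and 51.2 CPM, and the 22 h fast 25.04, 28.5 and 52.7 CPM. All 6 stomachs of 18 h and 22 h lay above all 3 fed ones, and those of the shorter fasts overlapped the fed range. Cyp27a1 rose there by 1.53 ± 0.31 (log2, SE) in the 18 h and 22 h fasts (edgeR adjusted p = 0.00670, 0.00327 to 0.0518 with each STM library left out), a call lost without replicate 3 of 0 h (0.0518), where the estimate was 1.35. The joint edgeR test (adjusted p = 0.0178, 0.0115 to 0.0761 with each STM library left out) lost the call without replicate 1 (0.0761) or 3 (0.0732) of 18 h. STM libraries were divided between 2 lanes in the same way as those of LIV, and with lane as a covariate neither call held (joint adjusted p = 0.922, and 0.98 with an adjusted p of 0.748 in the 18 h and 22 h fasts, edgeR). Of all 16281 STM genes, edgeR then called 0 in both tests (845 and 1116 at an unadjusted p below 0.05), against 1067 and 2491 without the covariate. In the counts of called members, Slc27a5 in STM joined Cyp27a1 without replicate 2 of 0 h (2 of 26 in both tests), and Nr1h4 in STM joined it without replicate 1 of 22 h (2 of 26 in the later fasts). Of all STM genes, 1742 (joint) and 3407 (later fasts) of 16231 were called without the former library. Without the latter, 2692 of 16202 were called in the later fasts.

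The difference between LIV and STM in this contrast was tested per mouse with limma over genes kept in both organs. Cyp27a1 changed by 1.31 ± 0.29 (log2, SE) less in LIV than in STM in the 18 h and 22 h fasts (-1.31 as LIV minus STM, 17 mice, limma adjusted p = 0.0321), the only one of 26 member tests called across the 8 organs, with 5 at an unadjusted p below 0.05. Shares of all genes called in these differences were 5.55% for OB, 9.42% for BRN, 10.9% for CBL, 7.49% for BST, 1.12% for STM, 17.2% for iBAT, 0.183% for pgWAT and 0.00766% for psWAT. With each STM library left out the estimate ranged from -1.51 to -1.17 and the limma adjusted p from 0.0236 to 0.223, and the call was lost without replicate 1 (0.160) or 3 (0.223) of 0 h, replicate 1 (0.0617) or 3 (0.0570) of 18 h or replicate 3 of 22 h (0.0755). Leaving out the LIV library of a mouse instead removes the same mouse from the paired test, so it is not a separate check. The same 5 mice then ended the call (0.157, 0.227, 0.0622, 0.0574 and 0.0751). Without replicate 2 of 18 h or replicate 1 of 22 h, of either organ, 2 of 26 were called, with Nr1h4 added. Of all genes, 326 of 13028 and 405 of 13030 were then called with the STM library left out. With the LIV library left out these were 325 of 13027 and 407 of 13034. Without the libraries with Alb above 300 CPM the estimate was -1.24 (limma adjusted p = 0.168), and with lane as a covariate it was -0.71 (1.00). Of all genes, limma called 14 of 12976 without those libraries, against 1.12% with them. With lane it called 0 of 13058 (375 at an unadjusted p below 0.05). Within STM, edgeR still called Cyp27a1 without those libraries, in the joint test and in the 18 h and 22 h fasts. Of 16146 STM genes, 891 and 459 were called in these tests. In STM as in LIV, lane nearly coincides with fasting time.

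**Figure D3:**
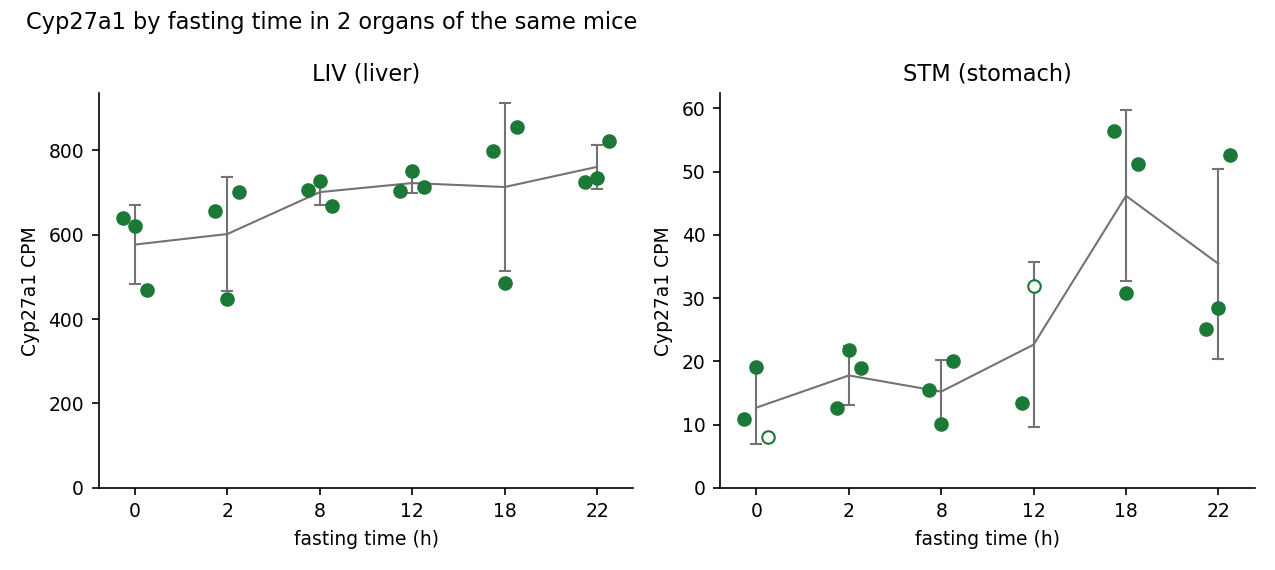
Cyp27a1 CPM per library in LIV and STM by fasting time (h, drawn at equal steps), with open circles for STM libraries with Alb above 300 CPM and the mean ± SD of the libraries at each time. The 6 STM libraries of 18 h and 22 h lie between 25.04 and 56.5 CPM, above the fed ones (8.06 to 19.1 CPM), while LIV lies between 447 and 855 CPM throughout.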

How the data were processed

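The count values analysed are those the authors deposited for all 162 libraries. Paired reads of stranded mRNA (Illumina) had been mapped to GRCm38.p5 with TopHat2 2.1.1 and assigned to genes by HTSeq 0.9.1. Each library is 1 organ of 1 mouse. The study set aside 5 libraries, which were left out here as well (replicate 3 of STM at 12 h, replicate 3 of BRN at 8 h and 1 at 18 h, replicate 1 of iBAT and 2 of psWAT at 22 h), so 157 were retained. LIV libraries held 6959200 to 12451777 counts.

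Members and lists were chosen with earlier results of these data known. CPM is counts per 1e+06 of the library total, and RPKM is CPM per kilobase of merged exons (GRCm38, a later Gencode release than the authors'). A gene entered the tests of an organ if 3 or more of its libraries reached the CPM that 10 counts make at the median depth. Testing was with edgeR 4.0.16 (TMM, robust quasi-likelihood) in R 4.3.3, with Benjamini-Hochberg adjustment over all genes tested in a comparison and calls at an adjusted p below 0.05. The second rule also asked for an absolute log2 change above 1, the fold threshold of the study. Differences between organs used limma 3.58.1 on log2 CPM (prior count 2) within mice. Organ order used permutations over mice (100000 resamples), and ratios used exact permutation tests with 0.5 added to counts. A gene at 3 counts or fewer was taken as not detected. Tables and figures used Python 3.11.15, numpy 2.4.6, pandas 2.3.3, scipy 1.17.1 and matplotlib 3.10.9.

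Replicate numbers were not used as pairs: the mean correlation of deviations between time points for the same number was -0.0279 (range -0.334 to 0.166), and for other numbers 0.0134. On simulated data with 13825 genes the LIV test of the 18 h and 22 h fasts against the fed state recovered 59 of 100 genes changed 2-fold and 89 of 100 changed 4-fold, with 10 unchanged genes called. The simulated counts had no lane effect and fewer changed genes than were called in the data. These numbers therefore need not hold for the real libraries.

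Lists were other synthesis enzymes (16 genes), other transporters (18), other regulators (19), clock output regulators (10), detoxification (7), cholesterol supply (8), PPARA targets (10), feeding and insulin response (7), and markers of hepatocytes (8), cholangiocytes and gallbladder (8), Kupffer (5), stellate (5) and endothelial (5) cells, pericentral (5) and periportal (5) hepatocytes and enterocytes (6). Genes named are all members, of each list those called in the LIV joint test and the 3 with the smallest p there, for each member the 3 most similar genes, and members called in other organs, and any other gene is said to be named after its values were seen. Alternatives were DESeq2 1.42.0, RLE factors, no filter, a replicate block, lane as a covariate, single time points, each library left out, a prior count of 0.5 and all 162 libraries. Single lanes, leaving out the libraries with Alb above 300 CPM, and leave-outs and lane in STM were chosen after seeing the data. Counts over gene lists include a few genes that are not reported here by name.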

Additional observations from a re-analysis of the deposited data

Results flagged for a closer look

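A test of the difference between organs picked out Cyp27a1: in the 18 h and 22 h fasts against the fed state its log2 change was -1.31 as LIV minus STM (limma adjusted p = 0.0321, 17 mice), while it was 1.53 in STM and 0.26 in LIV. The call was lost without the libraries with Alb above 300 CPM (-1.24, adjusted p = 0.168) and with lane as a covariate (-0.71, adjusted p = 1.00), and the cause was not tested. Of all genes, limma called 14 of 12976 without those libraries, against 1.12% with them. With lane it called 0 of 13058 (375 at an unadjusted p below 0.05). The edgeR calls of Cyp27a1 within STM held without those libraries and were lost with lane.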

How the results depend on the processing

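Shares of genes called in LIV moved with lane, single libraries, single time points, the tool, the filter and the fold threshold, and the cause was not tested. They are given in percent of the genes tested. This unit was chosen after the results had been seen. In the joint test (16.0%) DESeq2 called 25.6%, lane as a covariate 2.097%, lane 1 alone 5.25% and lane 2 alone 0.0875%, and leave-outs gave 9.12% to 20.7%, with 9.55% and 9.23% without replicates 1 and 2 of 0 h, 9.12% and 10.3% without replicates 2 and 3 of 2 h and 9.84% without replicate 2 of 12 h. Without a filter the share was 15.8%, from more genes (4055 called against 2241). For 2 h against 0 h (0.143%) DESeq2 gave 1.14%, no filter 2.05%, lane 1 alone 0.351%, the fold threshold 0.0570% and leave-outs 0% (edgeR, without replicate 1 of 0 h) to 0.534% (without replicate 1 of 2 h). For the 8 h and 12 h fasts against the fed state (8.89%) lane as a covariate gave 4.96%, 8 h alone 0.471%, lane 1 alone 2.28%, the fold threshold 0.813% and leave-outs 1.36% to 10.96%, the lowest without replicates 2 (1.36%) and 1 (1.76%) of 0 h.

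For the 18 h and 22 h fasts against the fed state (10.6%) lane as a covariate gave 0.150%, 22 h alone 4.15%, the fold threshold 1.66% and leave-outs 4.16% to 11.5%, the lowest without replicates 2 (4.16%) and 1 (4.85%) of 0 h. For these fasts against the 8 h and 12 h fasts (2.70%) DESeq2 gave 6.23%, no filter 5.48%, lane as a covariate 0% (edgeR, 1648 genes at an unadjusted p below 0.05), 12 h alone 0.00713%, 18 h alone 0.913%, 22 h alone 0.114%, lane 2 alone 0.0146%, the fold threshold 0.492% and leave-outs 0.115% (without replicate 2 of 8 h) to 9.93% (without replicate 1 of 18 h). The cause was not tested. Of members in other organs, 1 of 26 was called in the joint test (DESeq2 4, lane as a covariate in STM 0 with 5 at an unadjusted p below 0.05, leave-outs 0 to 2), 1 in the 18 h and 22 h fasts (2, 0 with 2, and 0 to 2) and 1 in the difference from LIV (limma, 0 without the libraries with Alb and 6 unadjusted, 0 with lane and 3 unadjusted, leave-outs 0 to 2).

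The replicate numbers as a replicate block gave 11.8% in the joint test, 0.171% at 2 h, 7.32% in the 8 h and 12 h fasts and 8.82% in the 18 h and 22 h fasts against the fed state, and 1.88% between them. With this replicate block Cyp8b1 (edgeR adjusted p = 0.00237) and Slc10a1 (0.00226) stayed called in the joint test, and Cyp7a1 (0.0605) and Cyp7b1 (0.0816) did not, nor did Cyp7b1 in the 8 h and 12 h fasts (0.0650).

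Of the 6 member contrasts that edgeR called with the filter on low counts, 4 did not reach the fold threshold, those of Slc10a1 and Cyp8b1. No contrast of a member that edgeR called with the filter on low counts turned direction under any alternative. Those that did turn were not called in that fit, and the cause was not tested. In the 8 h and 12 h fasts against the fed state they were Cyp8b1 (0.077 with lane, 0.39 for 8 h alone, 0.47 in lane 1, leave-outs -0.15 to 0.00065), Nr0b2 (0.015 for 12 h alone) and Baat (0.020 for 8 h alone, 0.022 in lane 1). In the 18 h and 22 h fasts against the fed state they were Nr0b2 (-0.30 with lane, called as a rise by edgeR without the filter) and Abcb11 (0.15 with lane, 0.0043 for 22 h alone). Between the later and earlier fasts they were Cyp27a1 (-0.039 for 12 h alone, -0.064 for 18 h alone, leave-outs -0.065 to 0.12), Slc10a1 (0.26 for 12 h alone, 0.035 for 22 h alone, leave-outs -0.13 to 0.0059), Slc27a5 (-0.059 for 8 h alone), Baat (0.015 for 22 h alone) and the log2 ratio of Cyp8b1 to Cyp7a1 (leave-outs -0.20 to 0.16). At 2 h leave-outs ranged from -0.087 to 0.21 for Cyp27a1 and from -0.16 to 0.30 for Cyp7b1.

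These are limits of design: 3 mice per time point, 1 clock time of collection, and lanes that nearly coincide with fasting time in LIV, STM and OB. In pgWAT the fed libraries and those of 18 h and 22 h were in different lanes. Genes with fewer than 10 counts in a library of median size in 3 libraries were not tested, and mRNA levels say nothing of bile acids or enzyme activity.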
